A study of Mus musculus with 6 samples.

Results

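The matrix gene set described here holds the genes of the extracellular matrix and of its turnover: the chains of collagens and laminins, the nidogens, perlecan (Hspg2), agrin (Agrn), fibronectin (Fn1), fibulins, fibrillins, elastin (Eln), emilins, thrombospondins, Sparc, Tnc and Vcan, together with the matrix metalloproteinases (Mmp) and their tissue inhibitors (Timp). Members were chosen by gene symbol alone. Of the 14005 genes in the table, 69 matched, and all 69 passed the filter on low values described below, as did 13991 of all genes. Genes of these families with no row, Col3a1 among them, are not covered. They were divided by role into 15 basement membrane genes, 17 fibrillar and fibril-associated collagens, 7 other collagens, 16 matrix and elastic fibre glycoproteins, and 14 proteases and inhibitors.

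RNA was sequenced from mouse FLK1+ mesoderm at day 3.5 of embryoid body (EB) differentiation, to compare wild-type cells with cells lacking Scl (Tal1), the transcription factor that sets up the blood programme. FLK1 is the VEGF receptor encoded by Kdr, and FLK1+ cells were enriched with antibody-coupled beads on magnetic columns. Each of the 2 groups had 3 libraries, 1 from each of 3 independent differentiations. The WT libraries came from the J1 embryonic stem (ES) cell line, and those of the Scl-/- group from an ES cell line without functional Scl, so each genotype is represented by a single line, and genotype and line cannot be told apart. No drug or other agent is given for either group. The strain is labelled C57Bl/6 X Sv129 for WT replicates 1 and 2 and Scl-/- replicate 1, C57Bl/6 X Sv131 for WT replicate 3, C57Bl/6 X Sv130 for Scl-/- replicate 2 and C57Bl/6 X Sv132 for Scl-/- replicate 3, and whether these numbers mark different crosses is not given in the sources used here.

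Cells secrete matrix in distinct layers. Basement membranes are thin sheets in which a laminin network, made of trimers of an alpha, a beta and a gamma chain, is joined by nidogens and heparan sulfate proteoglycans to a network of type IV collagen. Interstitial matrix is built from fibrillar collagens, whose fibrils are decorated by fibril-associated collagens, and from fibronectin and elastic fibres with a fibrillin scaffold. In the early embryo, fibronectin and laminins are the substrates over which mesoderm migrates and on which vessels assemble, and metalloproteinases cut matrix at and around the cell surface.

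The values were normalised read counts (CPM, scaled by the authors for sequencing depth and RNA composition) on listed genes, from 38623641 to 47621120 reads per library. In them, 3 reads corresponded to 0.0615 to 0.0784 CPM, a floor that covers counting error only. Differences were tested with limma on log2(CPM + 0.5) over 13991 genes, those that reached 0.5 CPM in 3 or more libraries. Values of single libraries are given in the order of replicates 1, 2 and 3. All log2 fold changes are Scl-/- minus WT on this scale, which understates changes of low genes. A gene was called at a Benjamini-Hochberg adjusted p under 0.05 with an absolute log2 fold change above 0.48. Same-numbered libraries shared their deviations from the mean of their genotype, so the fit with the replicate number as a block is given where it changes a call. The targeted gene Tal1 averaged 264 CPM in WT and 6.97 CPM in Scl-/- libraries. Kdr, the gene of the sorted protein, averaged 856 CPM in WT and 770.3 CPM in Scl-/- libraries and was not called. In bulk RNA, fewer cells of a type and less RNA per cell cannot be told apart.

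Across the set, 5 of the 69 members were called, against 2.36% of all genes tested. Those called lower in Scl-/- cells were Col18a1, Lamc1 and Fbn1, where the background was 1.57%, and those called higher were Col9a3 and Col6a1, where it was 0.793%. With the block, 21 members were called, 8 lower and 13 higher, or 30.4% of the set against 12.6% of all genes (6.60% lower and 6.04% higher). The other 48 were not called in either fit. The 6 libraries of the 2 groups did not overlap for 24 members, 8 lower and 16 higher, where 21.6% of all genes had no overlap. Of all 13991 genes tested, 1492 were lower without overlap and 1536 were higher without overlap. The share of the 69 members was thus near the background for lower expression and above it for higher expression. Counted by sign, 12 of 15 basement membrane genes had a negative log2 fold change, whereas 12 of 14 proteases and inhibitors and 17 of 24 collagens outside the basement membrane had a positive one. Over all genes tested, 6747 were negative and 7244 positive. Some of the members' signs turned in at least 1 alternative fit, as given below. The median log2 fold change was -0.22 for the basement membrane group, 0.36 for fibrillar and fibril-associated collagens, 0.42 for the other collagens, 0.26 for the glycoproteins and 0.32 for proteases and inhibitors, beside 0.01 for all genes tested. With chromosome medians removed they were -0.22, 0.31, 0.41, 0.12 and 0.31 in this order. These medians are descriptions, and no list was tested as such.

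**Figure D1:**
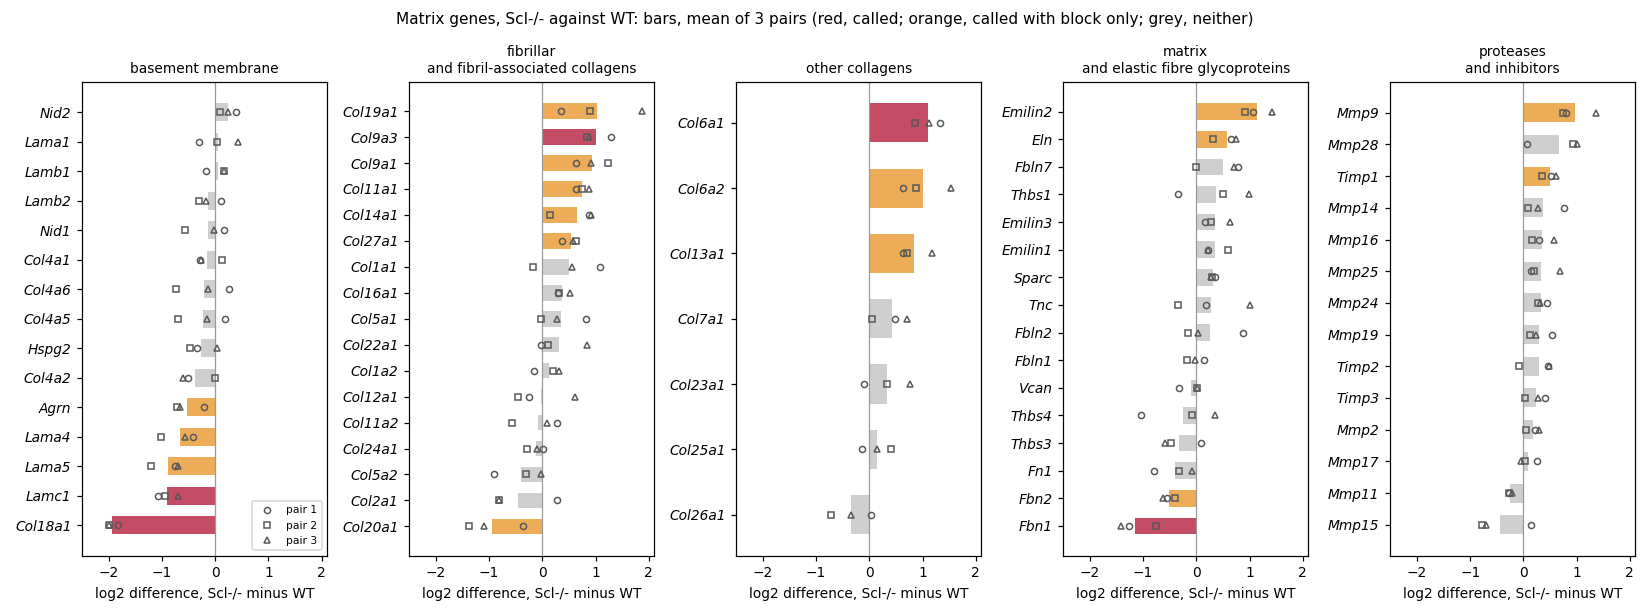
Log2 difference in expression (Scl-/- minus WT, on log2(CPM + 0.5), x axis) of all 69 matrix genes in 5 panels by role. Bars are means over the 3 same-numbered pairs of libraries and open symbols are single pairs; red bars mark the 5 genes called without the block, orange bars the other 16 called with it and grey bars the 48 called in neither, and the bars run from -1.94 (Col18a1) to 1.14 (Emilin2).

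**Figure D2:**
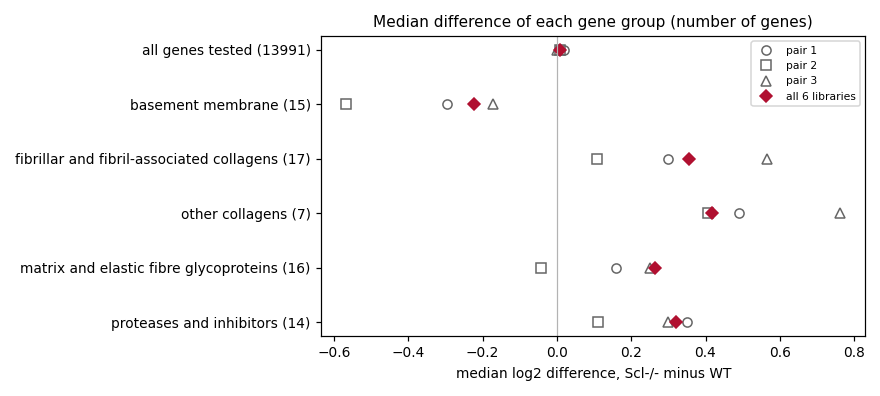
Median log2 difference (Scl-/- minus WT, x axis) of each role group, with its number of genes in brackets, beside all genes tested. Diamonds are medians over all 6 libraries and open symbols medians within each same-numbered pair; the basement membrane medians lie below 0 in all 3 pairs (-0.30, -0.57 and -0.17), and those of the proteases and inhibitors above 0 (0.35, 0.11 and 0.30).

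The count of called members depended on single libraries. Without the block, limma called 0 when WT replicate 1 was left out, where 13 members had an unadjusted p under 0.05, compared with 21 in all 6 libraries. It called 1 (Col18a1) without WT replicate 3 or without Scl-/- replicate 2, 2 without Scl-/- replicate 3, 3 without Scl-/- replicate 1 and 5 without WT replicate 2. With the block it was 25, 15 and 14 when the pair of replicate 1, 2 or 3 was left out, of which 19, 13 and 14 were among the 21. Col18a1, Lamc1, Fbn1, Col9a3 and Col6a1 were called in each of those 3 fits, as were Lama4, Lama5, Col13a1, Col6a2, Emilin2 and Mmp9. Of those fits, only the fit without replicate 1 called Agrn, Col19a1 and Col20a1, and none called Eln or Timp1. Over all fits that left out a library or a pair, log2 fold changes ran from -2.13 to -1.72 for Col18a1 and -1.06 to -0.77 for Lamc1. They ran from -1.39 to -0.98 for Fbn1, 0.87 to 1.09 for Col9a3 and 0.97 to 1.23 for Col6a1.

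The bases before the start of called members are shown here because Col18a1 and Col6a1 are neighbours on 1 chromosome that moved in opposite directions, and because Fbn1 moved with Col18a1. They come from RefSeq on build GRCm38.p6, 250 bases up to but not including the start site, and all 4 lie on the minus strand. Col18a1 has 2 starts in this source, at chr10:77166531-77166780 and chr10:77113706-77113955, Col6a1 has 1 at chr10:76726045-76726294, and Fbn1 has 1 at chr2:125506439-125506688. Capitals mark a match to CAGNTG, an E-box of the kind SCL contacts with its E protein partners.
Col18a1, first start: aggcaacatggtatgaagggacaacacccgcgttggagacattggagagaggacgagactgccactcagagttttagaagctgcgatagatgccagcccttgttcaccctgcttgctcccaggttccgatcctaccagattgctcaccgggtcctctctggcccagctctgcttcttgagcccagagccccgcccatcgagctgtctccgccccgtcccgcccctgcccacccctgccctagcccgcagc
Col18a1, second start: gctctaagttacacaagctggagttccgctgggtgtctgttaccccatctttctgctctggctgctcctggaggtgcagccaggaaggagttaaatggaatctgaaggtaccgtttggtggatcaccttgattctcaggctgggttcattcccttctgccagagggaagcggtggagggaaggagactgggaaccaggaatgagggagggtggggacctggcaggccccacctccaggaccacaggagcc
Col6a1: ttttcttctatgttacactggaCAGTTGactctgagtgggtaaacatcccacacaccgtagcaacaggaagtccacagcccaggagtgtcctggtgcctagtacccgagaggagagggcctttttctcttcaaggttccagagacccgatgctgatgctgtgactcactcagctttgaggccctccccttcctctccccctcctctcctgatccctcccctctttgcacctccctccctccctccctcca
Fbn1: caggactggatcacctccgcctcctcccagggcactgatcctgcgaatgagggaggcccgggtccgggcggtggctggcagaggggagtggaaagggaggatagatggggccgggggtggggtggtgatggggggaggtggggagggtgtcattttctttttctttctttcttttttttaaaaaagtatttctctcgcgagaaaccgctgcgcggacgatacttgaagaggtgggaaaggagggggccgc
The motifs searched on both strands were CAGNTG and the GATA motifs AGATAA and TGATAA, which can overlap each other. Of the 4 windows, that of Col6a1 held 1 CAGNTG, and none held AGATAA or TGATAA. Over the whole source, 44.8% of 32841 windows of this length held CAGNTG and 16.6% held AGATAA or TGATAA. Of the members, 47 matched by symbol with 54 windows, of which 23 (42.6%) held CAGNTG and 2 (3.70%) held AGATAA or TGATAA. Among members called with the block, CAGNTG was in 2 of 7 windows of 5 genes with lower and in 4 of 12 windows of 9 genes with higher expression in Scl-/- cells. Lamc1 and Col9a3 had no entry. A match describes these letters only, and the windows do not cover distant elements.

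Col18a1 had the largest difference of the set. It encodes the core protein of collagen XVIII, a heparan sulfate proteoglycan of vascular and epithelial basement membranes whose C-terminal end is cleaved to endostatin. Its gene (Ensembl ENSMUSG00000001435) spans chr10:76514923-76629293 of mm9 on the minus strand. It had 143, 111 and 188 CPM in WT and 40.03, 27.4 and 46.8 CPM in Scl-/- libraries. The groups did not overlap, and the highest Scl-/- library was below the lowest WT library. The mean fell from 147 ± 38.7 CPM (SD, n = 3) to 38.1 ± 9.86 CPM (SD, n = 3), a log2 fold change of -1.94 ± 0.25 (SE; limma, Benjamini-Hochberg adjusted p = 0.0106). The 3 pairs gave -1.83, -1.99 and -1.99, the closest spread between pairs among the 3 members called lower.

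Of the 6 laminin chains listed, 3 were called lower with the block, 1 of them also without it, and none was called higher. Of all genes, 6.60% were called lower with the block and 1.57% without it. Lamc1 (ENSMUSG00000026478, chr1:155066052-155179916 of mm9) encodes the gamma 1 chain, which is shared by most laminin trimers. It had 262, 202 and 258 CPM in WT and 124, 105 and 158 CPM in Scl-/- libraries, with no overlap, and fell from 240.5 ± 33.7 CPM to 129 ± 26.6 CPM (SD, n = 3 each). Its log2 fold change was -0.91 ± 0.17 (SE; limma, Benjamini-Hochberg adjusted p = 0.0434). Lamc1 lies on chromosome 1, where the median of 789 genes was -0.29. With the median of each chromosome removed from each library its log2 fold change was -0.62, with a limma adjusted p of 0.0802, which is no longer a call, or 3.82e-04 with the block. The study lists Lamc1 among the genes that SCL binds and activates.

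Of the alpha chains, Lama5 and Lama4 were called lower with the block and Lama1 was not called. Lama5 encodes an alpha chain of epithelial and endothelial basement membranes, and it had 165, 135 and 163 CPM in WT and 97.6, 57.9 and 99.4 CPM in Scl-/- libraries. The groups did not overlap, and the log2 fold change was -0.89 ± 0.21 (SE; limma adjusted p = 0.0884, or 8.38e-04 with the block). Lama4, the alpha chain typical of endothelial basement membranes, had 87.00, 50.6 and 76.4 CPM in WT and 64.9, 24.8 and 51.1 CPM in Scl-/- libraries. Here the groups overlapped, since WT replicate 2 lay below Scl-/- replicates 1 and 3, while the Scl-/- library was the lower in every pair, and the log2 fold change was -0.67 ± 0.36 (SE; limma adjusted p = 0.404, or 0.00479 with the block). Lama1, the alpha chain of the earliest embryonic basement membranes, had 37.8, 57.3 and 36.6 CPM in WT and 30.4, 58.96 and 49.6 CPM in Scl-/- libraries, with a log2 fold change of 0.05 ± 0.27 (SE), so any difference was within the spread between libraries.

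The beta chains were not called. Lamb1 had 208, 207 and 217 CPM in WT and 183, 232 and 242 CPM in Scl-/- libraries, and its log2 fold change was 0.05 ± 0.12 (SE). Lamb2 had 41.1, 31.5 and 45.4 CPM in WT and 44.1, 25.3 and 40.2 CPM in Scl-/- libraries, and its log2 fold change was -0.13 ± 0.23 (SE). Both groups overlapped for each beta chain. Measured per kb of union exon length over all 6 libraries, Lamc1 (22.3 CPM per kb) and Lamb1 (21.7) were the highest laminin chains, followed by Lama5 (10.5), Lamb2 (6.74), Lama4 (4.90) and Lama1 (4.74). The order depended on the length used, since per kb of the longest transcript Lamb1 (37.1) stood above Lamc1 (24.2) and Lama4 (9.78) above Lamb2 (6.74).

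The 4 chains of type IV collagen listed, which form the covalent network of the basement membrane, had negative log2 fold changes and none was called. Col4a1 and Col4a2, whose products combine in the common trimer of this collagen, were the highest basement membrane genes per length, at 71.4 and 38.8 CPM per kb. Col4a1 had 527, 506 and 499 CPM in WT and 429, 549.9 and 412 CPM in Scl-/- libraries, with the highest value of all in Scl-/- replicate 2. Col4a2 had 306, 264 and 299 CPM in WT and 213, 262 and 196 CPM in Scl-/- libraries, so that Scl-/- replicate 2 lay just under WT replicate 2. Their log2 fold changes were -0.15 ± 0.12 and -0.38 ± 0.13 (SE), and Col4a2 had a limma adjusted p of 0.0389 with the block but stayed under the fold threshold. They lie head to head on chromosome 8 of mm9 with their annotated starts 21 bp apart, so reads at the shared end cannot be assigned to either gene where counting is not by strand, which is not given in the sources used here.

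Col4a5 and Col4a6, the X-linked chains, form a second head-to-head pair with starts 1309 bp apart in mm9. Col4a5 had 37.2, 26.5 and 31.3 CPM in WT and 42.2, 16.1 and 28.1 CPM in Scl-/- libraries. Col4a6 had 38.1, 29.6 and 29.5 CPM in WT and 45.5, 17.5 and 26.9 CPM in Scl-/- libraries. Both were highest in Scl-/- replicate 1 and lowest in Scl-/- replicate 2, with log2 fold changes of -0.22 ± 0.32 and -0.21 ± 0.32 (SE), and they overlapped between groups.

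Of the linkers and proteoglycans, Agrn was called with the block. Agrin, a heparan sulfate proteoglycan that binds laminins, had 205, 172 and 227 CPM in WT and 177, 105 and 143 CPM in Scl-/- libraries, where Scl-/- replicate 1 lay above WT replicate 2. The log2 fold change was -0.53 ± 0.20 (SE; limma adjusted p = 0.225, or 0.00736 with the block). Perlecan (Hspg2), the third highest of the group at 31.3 CPM per kb of union exon length but below Lamb1 by the longest transcript, had 555, 507 and 411 CPM in WT and 435, 367 and 422 CPM in Scl-/- libraries and a log2 fold change of -0.26 ± 0.13 (SE), which was not called. The remaining members were the nidogens Nid1 and Nid2, which bridge laminin and type IV collagen, at -0.14 and 0.25. Of the 15 basement membrane genes, Nid2 alone was higher in the Scl-/- library of all 3 pairs, where 29.8% of all genes were, and 6 were lower in all 3 pairs, where 26.4% of all genes were.

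**Figure D3:**
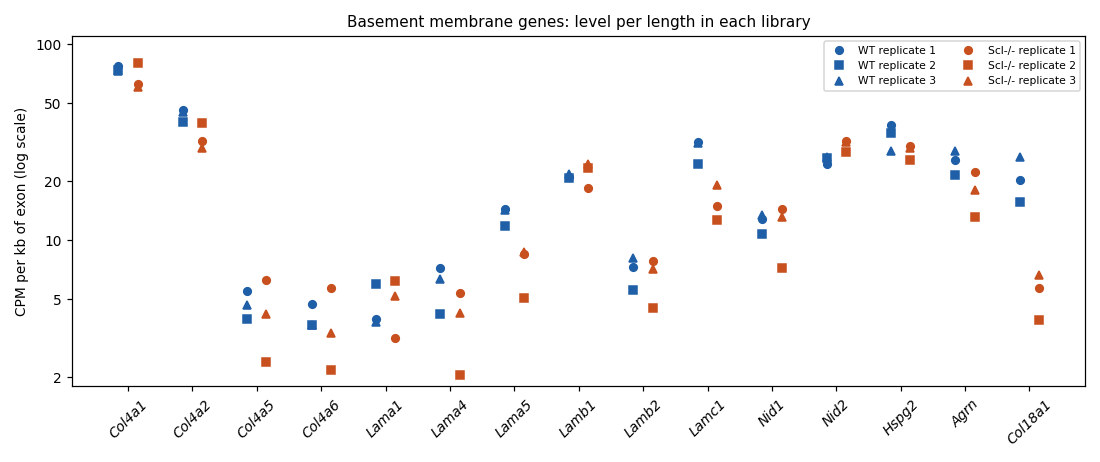
Expression of the 15 basement membrane genes in each of the 6 libraries, in CPM per kb of exon on a log axis; blue is WT, orange is Scl-/-, and circles, squares and triangles are replicates 1, 2 and 3. The libraries separate by genotype for Col18a1, Lamc1, Lama5, Col4a2 and Nid2 and overlap for the other 10 genes.

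Markers of endothelial cells were lower in Scl-/- libraries, as were the 5 basement membrane genes called lower with the block. The 8 endothelial markers were all listed, and their summed level was 256 to 615 CPM in WT and 51.5 to 145 CPM in Scl-/- libraries. All 8 were lower, 2 called without the block and 8 with it, where 1.57% and 6.60% of all genes were called lower. The 8 haematopoietic markers, Tal1 among them, summed to 304 to 504 CPM in WT and 25.2 to 41.8 CPM in Scl-/- libraries, and 8 were called lower. The part of either cell type in the levels of Col18a1, Lamc1, Lama4 and Lama5 was not tested. Of 12 endoderm markers, visceral and parietal endoderm included, the table lists 4, which summed to 31.3 to 43.4 CPM in WT and 35.6 to 53.2 CPM in Scl-/- libraries. With the block, 1 of the 4 was called lower (Sox17, at a log2 fold change of -2.10) and 1 higher (Pth1r, at 0.81). Sox17 is not particular to endoderm, and the study lists it among SCL-activated genes of endothelial development. The defining genes Afp, Ttr and Apoa1 were among the 8 with no row.

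Outside the basement membrane, more collagens were called higher than lower in Scl-/- cells, and most members called higher were genes of low level. Among the 13 members called higher with the block, 8 had a mean under 10 CPM, while 7 of the 8 called lower had a mean over 30 CPM. Fibrillar collagens form the banded fibrils of connective tissue and cartilage. Of the 9 listed, 2 were called higher with the block, where 6.04% of all genes were. Col11a1, a minor fibrillar chain of cartilage, had 4.19, 5.12 and 3.89 CPM in WT and 6.78, 8.92 and 7.53 CPM in Scl-/- libraries without overlap, at a log2 fold change of 0.75 ± 0.18 (SE; limma adjusted p = 0.0847, or 0.0049 with the block). Col27a1, a short fibrillar collagen of cartilage, had 40.9, 41.5 and 28.3 CPM in WT and 53.2, 64.7 and 42.6 CPM in Scl-/- libraries, again without overlap, at 0.53 ± 0.20 (SE; limma adjusted p = 0.231, or 0.0032 with the block).

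The fibrillar collagen highest per length was Col1a1, a chain of type I collagen, at 8.99 CPM per kb, followed by Col5a1 at 6.38 and Col27a1 at 3.47. Col1a1 had 50.4, 42.1 and 46.9 CPM in WT and 108, 37.2 and 69.7 CPM in Scl-/- libraries. Scl-/- replicate 1 stood highest and replicate 2 below every WT library, and the log2 fold change of 0.49 ± 0.34 (SE) was not called in either fit. Col1a1 is on chromosome 11, where the median of 1211 genes was 0.31, and with chromosome medians removed its log2 fold change was 0.19. Col5a1, which helps to start type I fibrils, had 41.4, 56.03 and 44.8 CPM in WT and 73.4, 55.3 and 54.1 CPM in Scl-/- libraries and was not called.

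Among the 8 fibril-associated collagens, 4 were called higher and 1 lower with the block, and Col9a3 also without it. Of all genes, 6.04% were called higher and 6.60% lower with the block. Collagen IX coats the fibrils of cartilage and is made of 3 chains, of which Col9a1 and Col9a3 were listed. Col9a3 (ENSMUSG00000027570, chr2:180332495-180356894 of mm9) had 3.96, 4.44 and 3.98 CPM in WT and 10.4, 8.39 and 7.78 CPM in Scl-/- libraries. The groups were well apart, and the mean rose from 4.13 ± 0.271 CPM to 8.85 ± 1.36 CPM (SD, n = 3 each), a log2 fold change of 1.01 ± 0.17 (SE; limma, Benjamini-Hochberg adjusted p = 0.0271). Col9a1 had 2.01, 3.21 and 2.31 CPM in WT and 3.40, 8.29 and 4.76 CPM in Scl-/- libraries, with a log2 fold change of 0.93 ± 0.32 (SE; limma adjusted p = 0.189, or 0.00568 with the block). Its lowest Scl-/- value was just above its highest WT value.

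Col19a1 and Col14a1 were the other members of this class called higher. Col19a1, a rare collagen of basement membrane zones whose gene lies 9.15 kb from Col9a1 on chromosome 1 of mm9, had 1.38, 3.79 and 0.631 CPM in WT and 1.89, 7.45 and 3.63 CPM in Scl-/- libraries. The spread between replicates was wide and the groups overlapped, but each Scl-/- library was above the WT library of its number, and the log2 fold change was 1.03 ± 0.57 (SE; limma adjusted p = 0.422, or 0.0267 with the block). Both genes were higher although the chromosome 1 median was below 0, and with chromosome medians removed their log2 fold changes were 1.21 (Col9a1) and 1.32 (Col19a1). Col14a1, which binds fibril surfaces in soft connective tissue, had 10.5, 12.9 and 8.77 CPM in WT and 19.7, 14.4 and 16.9 CPM in Scl-/- libraries, at 0.65 ± 0.19 (SE; limma adjusted p = 0.133, or 0.0216 with the block). Col20a1 went the other way, with 2.16, 2.80 and 2.70 CPM in WT and 1.58, 0.774 and 0.998 CPM in Scl-/- libraries, at -0.94 ± 0.24 (SE; limma adjusted p = 0.0991, or 0.0181 with the block). It is the 1 member called lower whose mean was not over 30 CPM.

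The remaining 10 fibrillar and fibril-associated collagens were called in neither fit, with log2 fold changes from -0.45 (Col2a1) to 0.49 (Col1a1). Col12a1, a fibril-associated collagen, was the only member under 0.5 CPM in any library, at 0.702, 0.549 and 0.583 CPM in WT and 0.512, 0.266 and 1.16 CPM in Scl-/- libraries. It passed the filter, and its difference of -0.03 ± 0.31 (SE) was far within the spread between libraries.

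The other collagens include the microfibrillar collagen VI, the anchoring fibril collagen VII and the transmembrane collagens. Col6a1 (ENSMUSG00000001119, chr10:76171537-76188913 of mm9) and Col6a2 encode chains of the same collagen VI trimer. Col6a1 had 1.61, 1.52 and 1.48 CPM in WT and 4.76, 3.17 and 3.81 CPM in Scl-/- libraries, and it rose from 1.53 ± 0.0642 CPM to 3.91 ± 0.799 CPM (SD, n = 3 each). The groups did not overlap, and the log2 fold change was 1.10 ± 0.19 (SE; limma, Benjamini-Hochberg adjusted p = 0.0335). Col6a2 had 2.33, 3.95 and 3.16 CPM in WT and 3.91, 7.64 and 10.05 CPM in Scl-/- libraries, with a log2 fold change of 1.01 ± 0.34 (SE; limma adjusted p = 0.182, or 0.00697 with the block). Scl-/- replicate 1 lay just below WT replicate 2 for this gene, whereas each pair was higher in the Scl-/- library. Per kb of union exon length, Col6a1 had 0.620 and Col6a2 0.621 CPM per kb, while by the longest transcript the values were 0.664 and 1.05.

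Both collagen VI genes lie beside Col18a1 on chromosome 10 of mm9, all 3 on the minus strand. Col6a2 and Col6a1 are 85.2 kb apart with no tested gene between them. From Col6a1 to Col18a1 the gap is 326 kb, with 1 tested gene between them, at a log2 fold change of 0.22. The member with the lowest log2 fold change thus stood beside 2 of those called higher, and chromosome 10 as a whole had no shift of its median over 0.1.

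Col13a1, a transmembrane collagen of cell adhesion sites, was the highest of the other collagens per length, at 9.27 CPM per kb. It had 28.5, 43.8 and 20.5 CPM in WT and 44.6, 71.7 and 47.2 CPM in Scl-/- libraries. The lowest Scl-/- library was only just above the highest WT library, and the log2 fold change was 0.84 ± 0.29 (SE; limma adjusted p = 0.196, or 0.00181 with the block). Col23a1, another transmembrane collagen, was next at 3.55 CPM per kb, with 16.3, 26.03 and 11.6 CPM in WT and 15.2, 32.8 and 20.05 CPM in Scl-/- libraries and no call. It lies on chromosome 11, and its log2 fold change of 0.33 was 0.03 with chromosome medians removed. The other 3 members had log2 fold changes from -0.35 to 0.42 and were not called.

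Among the glycoproteins, both fibrillins were lower in Scl-/- cells. Fibrillins build the microfibrils on which elastin is laid down and which store latent TGF-beta. Fbn1 (ENSMUSG00000027204, chr2:125126330-125333729 of mm9) had 123, 68.7 and 108 CPM in WT and 50.6, 40.6 and 40.2 CPM in Scl-/- libraries. WT replicate 2 was the lowest WT library and still lay above all Scl-/- libraries, and the mean fell from 99.8 ± 27.9 CPM to 43.8 ± 5.93 CPM (SD, n = 3 each), a log2 fold change of -1.15 ± 0.22 (SE; limma, Benjamini-Hochberg adjusted p = 0.0455). Fbn2, the fibrillin of embryonic tissue, had 289.8, 213 and 236 CPM in WT and 199, 161 and 154 CPM in Scl-/- libraries, also without overlap, at -0.52 ± 0.15 (SE; limma adjusted p = 0.131, or 0.00129 with the block).

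The elastic fibre genes called in the other direction were Emilin2 and Eln. Emilin2, a glycoprotein of elastic fibres, had the highest positive log2 fold change of the set on this scale, although Col6a1 was higher with a pseudocount of 0.1 (1.28 against 1.17). It had 8.58, 15.1 and 10.2 CPM in WT and 18.5, 29.1 and 28.3 CPM in Scl-/- libraries, without overlap, at 1.14 ± 0.25 (SE; limma adjusted p = 0.0716, or 6.20e-04 with the block). Eln, which encodes the elastic core protein, had 2.33, 3.79 and 2.60 CPM in WT and 3.96, 4.81 and 4.72 CPM in Scl-/- libraries, at 0.57 ± 0.21 (SE; limma adjusted p = 0.215, or 0.0287 with the block). Its groups did not overlap, with Scl-/- replicate 1 just above WT replicate 2. Eln was no longer called with the block when any pair was left out. Emilin1 and Emilin3 had log2 fold changes of 0.35 and 0.36 and were not called.

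Fn1 was the most abundant member by far. Fibronectin is the adhesive substrate of early mesoderm, and its transcript ranked 2 of all genes by CPM and 22 per kb. It had 6252, 6718 and 7025 CPM in WT and 3617, 5350.1 and 6612 CPM in Scl-/- libraries, or 0.628% to 0.710% of all CPM in WT and 0.371% to 0.668% in Scl-/- libraries. The Scl-/- values spread widely, from well under the WT range in replicate 1 to within it in replicate 3, and the log2 fold change of -0.40 ± 0.22 (SE) was not called (limma adjusted p = 0.411, or 0.0576 with the block). Fn1 is on chromosome 1, and with chromosome medians removed its log2 fold change was -0.12. Over all 6 libraries it stood at 711 CPM per kb, far above Sparc at 95.2 and Fbln1 at 27.5, the next glycoproteins.

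Sparc and Fbln1 were not called. Sparc, a matricellular protein that binds collagen, had 275, 253 and 330.5 CPM in WT and 352, 311 and 402 CPM in Scl-/- libraries. Each pair was higher in the Scl-/- library, and the log2 fold change of 0.31 ± 0.14 (SE) had a limma adjusted p of 0.303, or 0.00684 with the block, but lay under the fold threshold. Sparc is on chromosome 11, and its log2 fold change was 0.00 with chromosome medians removed. Fbln1, a fibulin of basement membranes and elastic fibres, was nearly level, at 118, 118 and 124 CPM in WT and 131, 105 and 123 CPM in Scl-/- libraries. None of the 3 fibulins or 3 thrombospondins was called, and the other glycoproteins called in neither fit lay between -0.40 (Fn1) and 0.49 (Fbln7).

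Of the 14 proteases and inhibitors, 10 were higher in the Scl-/- library of all 3 pairs, where 29.8% of all genes were, and 2 (14.3%, beside 12.6% of all genes) were called with the block, both higher. Mmp9, a gelatinase that cuts type IV collagen, had 35.2, 30.4 and 44.8 CPM in WT and 61.7, 50.9 and 116 CPM in Scl-/- libraries. Scl-/- replicate 3 stood highest, and the lowest Scl-/- library was above the highest WT library. The log2 fold change was 0.97 ± 0.30 (SE; limma adjusted p = 0.156, or 0.00137 with the block). Timp1, an inhibitor of secreted metalloproteinases, had 3.04, 3.89 and 4.18 CPM in WT and 4.55, 5.12 and 6.64 CPM in Scl-/- libraries, at 0.49 ± 0.20 (SE; limma adjusted p = 0.259, or 0.0314 with the block), just past the fold threshold. Timp1 was no longer called with the block when any pair was left out.

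The proteases highest per length were Mmp14 at 41.9 CPM per kb, Mmp2 at 39.2 and Mmp9 at 15.97. Mmp14, a membrane-anchored protease that activates the Mmp2 proenzyme, had 79.5, 122 and 84.8 CPM in WT and 136, 129 and 102 CPM in Scl-/- libraries, at 0.38 ± 0.19 (SE). Mmp2, a second gelatinase, had 100.4, 104 and 129 CPM in WT and 116, 108 and 158 CPM in Scl-/- libraries, at 0.19 ± 0.17 (SE). Neither was called, and the groups overlapped for both. Timp2, at 0.29, and Timp3, at 0.23, were not called either. Timp2 lies on chromosome 11, and its log2 fold change was -0.02 with chromosome medians removed. Of the whole group, Mmp15 and Mmp11 had negative log2 fold changes, and neither was called.

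The other marker lists moved as follows. The 8 markers of FLK1+ mesoderm were all listed and summed to 1971 to 2303 CPM in WT and 2358 to 2977 CPM in Scl-/- libraries. With the block 5 of them were called higher. Hand1 (-0.45), Foxf1 (-0.61) and Kdr (-0.15) had negative log2 fold changes and were not called. Of all genes, 6.04% were called higher and 6.60% lower with the block. Of 8 cardiac markers, 6 were listed and summed to 207 to 303 CPM in WT and 307 to 398 CPM in Scl-/- libraries, with Tbx5 and Tnnt2 having no row and 3 higher with the block. Most of this sum was Gata4, with 187, 272 and 177 CPM in WT and 271, 350 and 296 CPM in Scl-/- libraries. Mef2c (-0.60), Nkx2-5 (-0.21) and Hand2 (-0.06) had negative log2 fold changes and were not called. Of 8 paraxial markers, 5 were listed and summed to 14.95 to 30.1 CPM in WT and 17.9 to 42.3 CPM in Scl-/- libraries, with 2 higher with the block. The rest were Foxc1 (0.72), Tcf15 (-0.70) and Foxc2 (-0.23), as log2 fold changes, and none of these was called. The undifferentiated cell markers were all listed and summed to 225 to 532 CPM in WT and 317 to 917 CPM in Scl-/- libraries, with 2 lower and 3 higher with the block. Of 8 fibroblast or stromal markers, 4 were listed, Col1a1 among them, and summed to 76.2 to 88.3 CPM in WT and 78.1 to 166 CPM in Scl-/- libraries, while Dcn, Lum, Postn and Prrx1 had no row. Col1a1, itself a matrix member, gave 108 of the 166 CPM in Scl-/- replicate 1. With the block, Pdgfrb was called higher, at a log2 fold change of 0.50, and Col1a1 (0.49), Thy1 (0.31) and Twist2 (0.01) were not called. The part of these cell types in the levels of collagens and proteases was not tested.

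**Figure D4:**
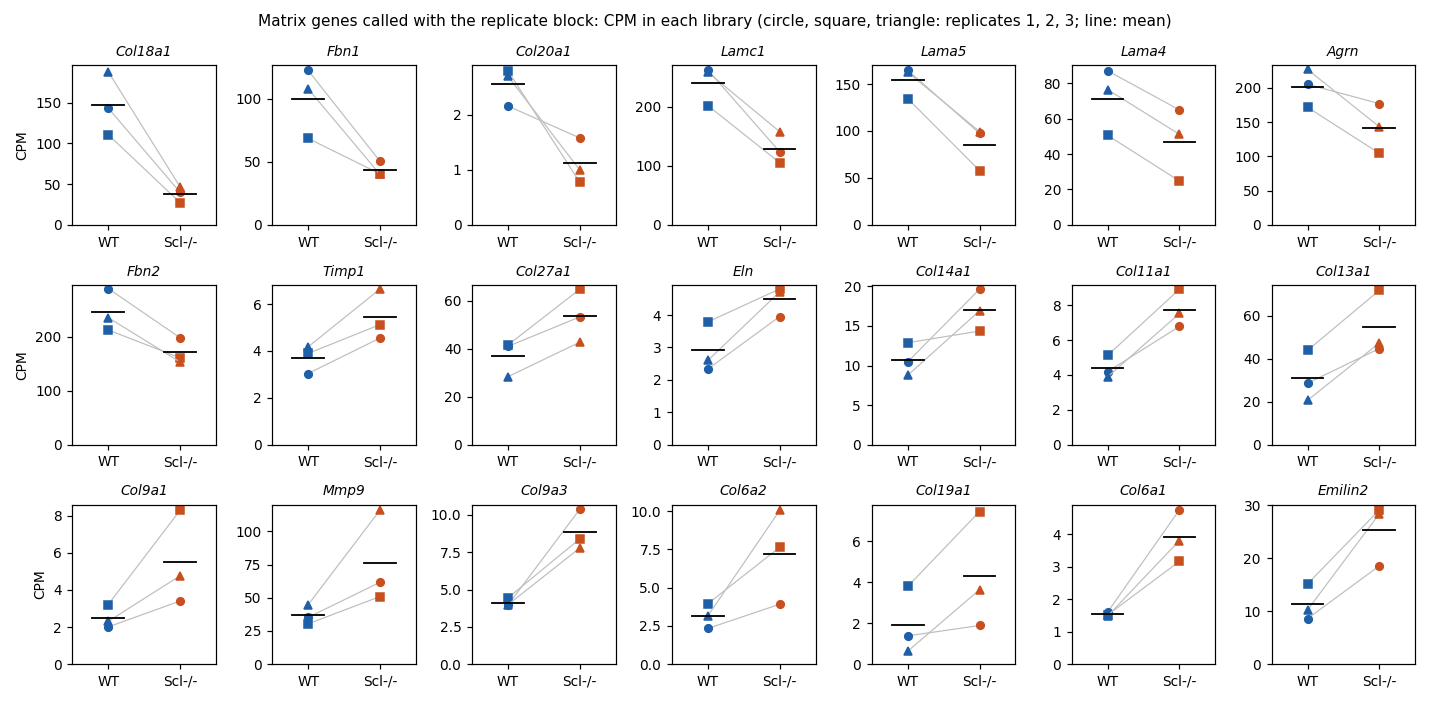
CPM in each library of the 21 matrix genes called with the replicate block, 1 panel per gene ordered by log2 difference, with axes that start at 0. Circles, squares and triangles are replicates 1, 2 and 3, grey lines join libraries of the same number, and black lines are group means; all 3 grey lines slope the same way in each panel.

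Genes that process and accompany matrix were taken from 3 further lists. Of 21 tested genes for collagen modification, cleavage and crosslinking, 1 was called, and 6 (28.6%) were called higher and none lower with the block. Of all genes, 12.6% were called with the block, 6.04% higher and 6.60% lower. Tll1, a tolloid-like protease that trims procollagens, rose from 8.69 ± 3.55 CPM to 24.7 ± 2.82 CPM (SD, n = 3 each; log2 fold change 1.52, limma adjusted p = 0.03). The other 5 were Leprel1 (1.02) and P4ha2 (0.49), which encode prolyl hydroxylases, P4hb (0.59), Plod2 (0.48), a lysyl hydroxylase, and Loxl4 (0.65), a crosslinking oxidase, all as log2 fold changes. With chromosome medians removed and the block, 2 of the 21 were still called, Tll1 and Leprel1, where 10.7% of all genes were called. P4ha2 and P4hb, on chromosome 11, then had 0.18 and 0.28, whereas Plod2 (0.47) fell just short of the fold threshold and Loxl4 (0.65) of the adjusted p (limma, 0.0577 in place of 0.0443). Of 13 ADAMTS proteases, 0 were called without the block by limma, where the unadjusted p was under 0.05 for 4. The block gave 3 calls (23.1%, beside 12.6% of all genes), Adamts17 lower (-0.57) and Adamts15 (0.78) and Adamts19 (0.87) higher. Adamts4, on chromosome 1, was called higher as well with chromosome medians removed, at 0.65.

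Of 27 tested proteoglycan, hyaluronan and TGF-beta-binding genes, 3 were called, where 2.36% of all genes were. With the block, 5 were called lower and 4 higher (33.3% together). Of all genes, 6.60% were called lower and 6.04% higher with the block (12.6% together). Hapln1, the link protein that ties proteoglycans to hyaluronan, had the largest difference of these lists and fell from 43.1 ± 11.3 CPM to 8.38 ± 4.10 CPM (SD, n = 3 each; log2 fold change -2.40, limma adjusted p = 0.0299). Sdc3, a membrane heparan sulfate proteoglycan, fell from 104 ± 34.1 CPM to 29.3 ± 10.2 CPM (SD, n = 3 each; log2 fold change -1.82, limma adjusted p = 0.038). Smoc1, a relative of Sparc in basement membranes, rose from 1.48 ± 0.0790 CPM to 4.72 ± 1.46 CPM (SD, n = 3 each; log2 fold change 1.36, limma adjusted p = 0.0308). With the block, the endothelial secreted protein gene Egfl7 (-1.72), the cartilage matrilin Matn1 (-1.55) and the glypican Gpc1 (-0.52) were also lower, and the fibulin-like Efemp1 (0.96), the glypican Gpc4 (0.69) and the hyaluronan synthase Has3 (0.60) higher, all as log2 fold changes. Matn1 was a gene of low level, with 2.66, 0.575 and 2.57 CPM in WT and 0.205, 0.0725 and 0.522 CPM in Scl-/- libraries. Its value in Scl-/- replicate 2 was at the floor of 3 reads. Gpc1 lies on chromosome 1, and with chromosome medians removed it had -0.23 and was no longer called.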

How the data were processed

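RNA from 3 WT and 3 Scl-/- FLK1+ day 3.5 samples was sequenced by the study. The authors aligned reads to mm9 with TopHat2 2.0.8b, removed duplicate read pairs, filtered them by mapping quality with SAMtools 0.1.19 and scaled the libraries by TMM in edgeR. The deposited file was 1 table of CPM values, which were used as given. The counting tool and its annotation are not given in the sources used here. Removing duplicates can cap very abundant transcripts such as Fn1. Column sums were 976038 to 1017907 CPM. Values were whole multiples of 1 read's worth (100% within 0.1), from which the reads per library and the floor of 3 reads were taken. Low values were too rare for such reads to be accepted for a count model by the criterion used, so none was run. Groups and replicate numbers came from the sample labels.

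Values were taken as log2(CPM + 0.5), genes that reached 0.5 CPM in 3 or more libraries were tested, and limma 3.58.1 in R 4.3.3 was fitted to all 13991 of them (eBayes with an intensity trend, condition as the only term, Benjamini-Hochberg adjustment). The fold threshold was 0.48 on the log2 scale. The design text gives 3 independent differentiations. Same-numbered libraries had deviations from group means that correlated at 0.59, 0.76 and 0.75, against -0.62 to -0.10 for other pairs, so the replicate block was also fitted. Levels were compared between genes per kb of union exon length from the GENCODE annotation of mm9, and sequences came from RefSeq (GRCm38.p6). Python 3.11.15 was used for the rest.

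Members, role groups, other matrix lists and cell type markers were chosen with earlier results of these data known. Genes named singly were every member called with or without the block, the 3 highest per kb of each group, all type IV collagen and laminin chains, and called genes of the other lists. Members named for a range, a neighbour or a family, and Nid1, Nid2, Emilin1, Emilin3, Mmp11, Mmp15, Timp2, Timp3, Fbln7, Col2a1 and Col12a1, were added after their values were seen. Alternatives were a pseudocount of 0.1 or of 1, omitting the filter, requiring a mean of 2 CPM, median-ratio rescaling, no intensity trend, chromosome medians removed, the block, no fold threshold, the longest transcript as length, and each library left out.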

Additional observations from a re-analysis of the deposited data

How the results depend on the processing

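A pseudocount of 0.1 or of 1, omitting the filter, requiring a mean of 2 CPM and median-ratio rescaling each called the same 5 members. The replicate block called 1768 genes in place of 330, 21 members (8 lower, 13 higher) in place of 5 and 18 genes of the other matrix lists in place of 4, which are values from a fit with smaller standard errors and unchanged log2 fold changes. With the block and chromosome medians removed, the counts were 1495 genes, the same 21 members (8 lower, 13 higher) and 14 other genes, and with the block and no fold threshold 3385 genes, 25 members (9 lower, 16 higher) and 23 other genes. Without the intensity trend 3 members were called (1 lower), and with chromosome medians removed 4, without Lamc1. Leaving out 1 library gave 44 to 384 genes, 0 to 5 members, 0 to 3 lower, 0 to 2 higher and 0 to 5 other genes. Leaving out 1 pair under the replicate block, an alternative chosen after seeing the data, gave 2062, 1122 and 1210 genes (without replicates 1, 2 and 3), 25, 15 and 14 members, 11, 7 and 5 lower, 14, 8 and 9 higher, and 17, 15 and 11 other genes. Over both kinds of fit, group medians stayed on their side of 0: 0.11 to 0.25 for the whole set, 0.031 to 0.27 for glycoproteins (0.080 to 0.24 without the block), 0.26 to 0.63 for other collagens, 0.19 to 0.42 for proteases and inhibitors, 0.26 to 0.42 for fibrillar and fibril-associated collagens and -0.35 to -0.13 for basement membrane genes. With chromosome medians removed, the median was 0.12 in place of 0.23 for the whole set and 0.12 in place of 0.26 for glycoproteins. Over all 69 members, 18 took the opposite sign under at least 1 alternative, each of them called in neither fit. Nid1 (-0.33 to 0.16), Timp2 (-0.02 to 0.47), Col1a2, Col11a2, Col12a1, Col24a1, Fbln2, Thbs1, Thbs4, Tnc, Vcan and Mmp17 did so, and among the members followed singly Col4a5 ran from -0.55 to 0.14 (0.016 with the block without replicate 2), Col4a6 from -0.56 to 0.12 (0.061 likewise), Lama1 from -0.14 to 0.33 (-0.13 with the block without replicate 3), Lamb1 from -0.028 to 0.17 (-0.0096 and -0.0068 with the block without replicates 2 and 3), Lamb2 from -0.28 to 0.11 and Fbln1 from -0.082 to 0.078 (0.066 with the block without replicate 2). The cause was not tested. With 3 libraries a group, a difference within the spread between libraries was not detectable, which does not show equal levels.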

Other observations

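Ratios between genes of 1 structure, taken per kb within each library so that library scaling drops out, are given here as values with no test. The Lamb1 to Lamc1 ratio was 0.661, 0.856 and 0.701 in WT replicates 1 to 3 and 1.24, 1.84 and 1.28 in Scl-/- replicates 1 to 3, without overlap. The values are per kb of union exon length, and which chain of a pair is the higher can depend on that length. Over all 6 libraries Lamb1 had 21.7 and Lamc1 22.3 CPM per kb, but 37.1 and 24.2 by the longest transcript. Lamc1 is on chromosome 1 and Lamb1 on chromosome 12. The Fbn2 to Fbn1 ratio was 2.73, 3.59 and 2.53 in WT and 4.54, 4.60 and 4.42 in Scl-/- libraries, without overlap. For the head-to-head pair Col4a1 and Col4a2 the ratio was 1.67, 1.86 and 1.62 in WT and 1.95, 2.04 and 2.04 in Scl-/- libraries, also without overlap, a narrow range for genes whose levels moved little. Col4a5 to Col4a6, the other such pair, had 1.16, 1.06 and 1.26 in WT and 1.11, 1.10 and 1.25 in Scl-/- libraries, which overlapped. Among the laminin alpha chains, the Lama1 to Lama5 ratio was 0.275, 0.510 and 0.270 in WT and 0.373, 1.22 and 0.598 in Scl-/- libraries, above the WT library in each pair but overlapping between groups, with replicate 2 the highest of both groups.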
